A study of Saccharomyces cerevisiae with 4 samples.

Results

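Transcript levels were followed for 10 yeast genes that carry the sterol pathway across its middle part, the formation of squalene and its conversion to zymosterol. The genes were taken by name (*ERG9*, *ERG1*, *ERG7*, *ERG11*, *NCP1*, *ERG24*, *ERG25*, *ERG26*, *ERG27* and *ERG28*). All 10 were found in the array annotation under these symbols with 1 probe each, so that they made up 10 of the 6226 features tested. Arrays were made from 2 biological replicates of the sch9-deleted strain and 2 of its wild-type parent 59A. The parent is a haploid spore derivative of the Champagne wine yeast EC1118, and in the mutant a KanMX cassette took the place of the *SCH9* reading frame. How many independent deletion clones were used is not stated in the sources at hand. *SCH9* encodes a nutrient-responsive protein kinase that acts below TORC1. According to the labels both strains fermented 230 g/L of glucose and fructose at 24°C, with 142 mg/L of assimilable nitrogen and 5% of the usual lipid factors. These factors are ergosterol and oleic acid. The paper's methods describe the fermentations as anaerobic. The methods name a medium with less nitrogen as well, so the medium rests on the labels. The comparison asks how loss of *SCH9* alters expression in fermenting cells that are short of sterol.

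Yeast builds ergosterol, its counterpart of cholesterol, from acetyl-CoA by way of mevalonate and farnesyl diphosphate. Squalene synthase (Erg9) commits farnesyl diphosphate to sterols, squalene epoxidase (Erg1) and lanosterol synthase (Erg7) close the ring system, and a cytochrome P450 (Erg11) with its reductase (Ncp1) and the C-14 reductase (Erg24) remove the methyl group at C-14. Erg25, Erg26 and Erg27, held together by the scaffold protein Erg28, then take off the methyl groups at C-4, which gives zymosterol. Erg1, Erg11 and Erg25 need molecular oxygen, which is why yeast without oxygen depends on sterol taken up from the medium.

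The values are log2 intensities, quantile-normalised between arrays by the authors, and expression is compared as a log FC, the mean of the mutant minus that of the wild type on the log2 scale. *SCH9* itself stood at 5.81 and 5.67 in the mutant and at 8.72 and 8.67 in the wild type, and the mutant values lay above only 6.02% and 1.38% of the features on their arrays. The 10 genes were far from this floor, above at least 82.0% of the features on every array. Among markers of cell type, 7 of 7 a-specific genes were higher in the mutant (limma, adjusted p under 0.05), as were 14.6% of all features. Their summed linear intensities were 18643 to 19084 in the mutant and 5753 to 5831 in the wild type. Of the alpha-specific genes 3 of 4 were higher, at sums of 1401 to 1446 in the mutant and of 384.0 to 389.4 in the wild type. The brightest of the 4 was *SAG1*, at 10.18 and 10.23 in the mutant and 7.81 and 7.84 in the wild type. Of 6 haploid-specific genes 3 were higher, at 6503 to 6775 in the mutant against 4561 to 4762 in the wild type. The alpha-cell receptor gene *STE3* was at the floor of all 4 arrays. *MF(ALPHA)1*, called higher, was near it, at 5.94 and 5.89 in the mutant and 5.59 and 5.59 in the wild type. It did not pass with slide position as a covariate (limma, adjusted p = 0.0807). The part of these shifts in the sterol results was not tested.

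Most of these genes were lower in the sch9 mutant and none was higher. Of the 10 genes, 9 were called lower at an adjusted p under 0.05 (limma, Benjamini-Hochberg over all features), a call made for 12.1% of all features, and 0 were called higher, beside 14.6% of all features. With the study's further criterion of a log FC below -1, which 1.64% of all features met, 2 of the 10 remained, *ERG1* and *ERG11*, whereas 0 rose by more than 1, beside 2.18% of all features. The median log FC of the 10 genes was -0.77, beside -0.01 over all features. In all 10 genes both mutant arrays lay below both wild-type arrays, an arrangement found in 35.8% of all features, while the reverse was found in 0 of the 10 and in 33.7% of all features. The 10 log FC ran from -1.42 in *ERG1* to -0.42 in *ERG24*.

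**Figure D1:**
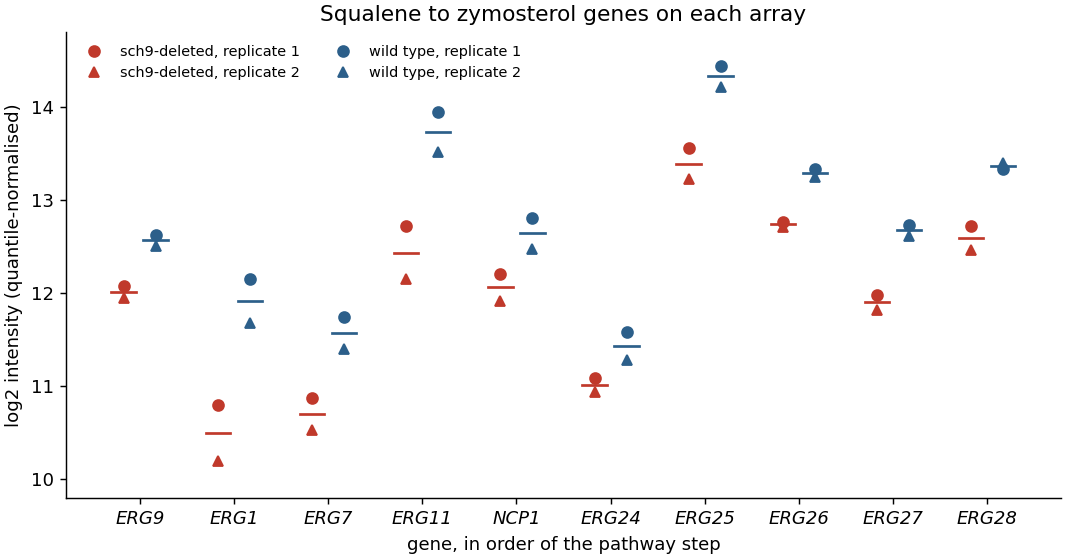
Log2 intensity (y axis) of the 10 genes in pathway order (x axis), for the sch9 mutant (red, left) and wild-type 59A (blue, right), with circles for replicate 1, triangles for replicate 2 and bars for means of 2 arrays. For every gene the red symbols lie below the blue ones, with the widest separation in *ERG1* and *ERG11*; heights of different genes come from different probes and are not comparable.

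At the entry to the branch, the change was small for squalene synthase and large for squalene epoxidase. *ERG9* measured 12.08 and 11.94 in the mutant, against 12.63 and 12.51 in the wild type. This amounts to a log FC of -0.56 (limma, adjusted p = 0.0134, standard error 0.09), or 68.0% of the wild-type level with a 95% confidence interval from 58.2% to 79.5%. *ERG1*, whose product inserts oxygen into squalene and is the target of allylamine antifungals, measured 10.79 and 10.19 in the mutant, against 12.15 and 11.67 in the wild type. The arrays of the strains stayed 0.88 log2 units apart, although the mutant replicates themselves differed by 0.60. The log FC of *ERG1* was -1.42 (adjusted p = 0.0161, standard error 0.25), which puts the mutant at 37.4% of the wild type (95% confidence interval 24.3% to 57.5%). Only 0.707% of all features had a lower log FC. *ERG7*, encoding the cyclase that folds oxidosqualene into lanosterol, measured 10.87 and 10.53 in the mutant and 11.74 and 11.40 in the wild type. Its log FC of -0.87 (adjusted p = 0.0202, standard error 0.16) was smaller in size than those of *ERG1* before it and *ERG11* after it, and put the mutant at 54.7% of the wild type (95% confidence interval 41.1% to 73.0%).

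In the removal of the C-14 methyl group, the fall in the point estimate was larger for the P450 than for its partner enzymes. *ERG11*, which encodes the lanosterol demethylase that azole antifungals inhibit, measured 12.72 and 12.15 in the mutant and 13.95 and 13.51 in the wild type. Its log FC was -1.30 (limma, adjusted p = 0.0177, standard error 0.23), or 40.7% of the wild-type level with a 95% confidence interval from 27.1% to 61.2%. *NCP1*, the NADPH reductase that passes electrons to Erg11 and also to Erg1 and Erg5, measured 12.20 and 11.92 in the mutant and 12.80 and 12.48 in the wild type. The nearest arrays of the strains were thus 0.27 apart, less than the 0.29 and 0.33 between replicates of the mutant and the wild type. The log FC of *NCP1* was -0.58 (adjusted p = 0.0438, standard error 0.15), and it did not pass with slide position as a covariate (adjusted p = 0.0676). *ERG24*, the reductase that acts on the product of Erg11, was the one gene that did not pass the test. It measured 11.08 and 10.94 in the mutant and 11.58 and 11.28 in the wild type, a log FC of -0.42 (adjusted p = 0.0585, standard error 0.12) with a 95% confidence interval from -0.73 to -0.11 before any adjustment. Both mutant values were below both wild-type values here too, by 0.20.

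The 4 genes of C-4 demethylation were all lower, by less than 2-fold each in the point estimate. *ERG25*, the oxygen-requiring methyl oxidase, measured 13.55 and 13.22 in the mutant and 14.44 and 14.21 in the wild type, a log FC of -0.94 (limma, adjusted p = 0.0114, standard error 0.14). *ERG26*, the dehydrogenase and decarboxylase of the complex, measured 12.76 and 12.71 in the mutant and 13.33 and 13.25 in the wild type. Its replicates were the closest of the 10 genes in the mutant, and its log FC was -0.56 (adjusted p = 0.00874, standard error 0.08). *ERG27*, the keto reductase that also stabilises Erg7, measured 11.98 and 11.82 in the mutant and 12.73 and 12.61 in the wild type, and its log FC of -0.77 (standard error 0.09) had the lowest adjusted p of the 10, 0.00621. *ERG28*, the gene of the scaffold protein, measured 12.72 and 12.46 in the mutant and 13.33 and 13.39 in the wild type, with a log FC of -0.77 (adjusted p = 0.00902, standard error 0.11). *ERG27* and *ERG28*, at 58.6% and 58.5% of the wild type, could not be separated, as the within-array difference between them overlapped between the strains.

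**Figure D2:**
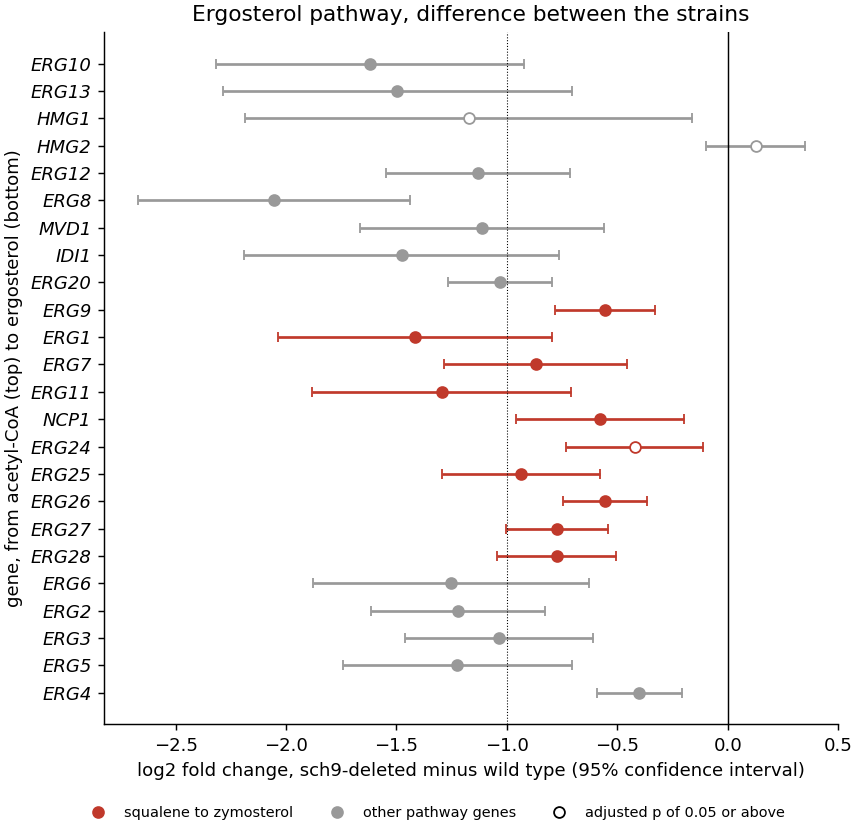
Log2 fold change, sch9-deleted minus wild type, with its 95% confidence interval from limma (x axis, dotted line at -1) for 24 genes of ergosterol synthesis in pathway order (y axis), the 10 squalene to zymosterol genes in red and the others in grey, open symbols for an adjusted p of 0.05 or above. The red points run from -1.42 in *ERG1* to -0.42 in *ERG24*, and 2 of them, *ERG1* and *ERG11*, lie beyond -1.

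The point estimates of the genes differed in size. Since a scale factor of an array cancels in the difference between 2 genes on that array, this difference was compared between the strains for all 45 pairs. With 2 arrays against 2 the exact two-sided permutation test cannot give a p below 0.333. In 36 of the 45 pairs the strains did not overlap. As 73.5% of all pairs of features on the arrays did the same, this count says little about these genes, and the sizes are given instead. *ERG1* minus *ERG24* was -0.29 and -0.75 in the mutant and 0.57 and 0.39 in the wild type, so that *ERG1* fell 1.00 log2 units further, the widest gap among the pairs (exact permutation p = 0.333). *ERG11* minus *NCP1* was 0.52 and 0.23 in the mutant and 1.14 and 1.04 in the wild type, a difference of -0.71 between the P450 and its reductase. *ERG1* and *ERG11* moved almost together, with *ERG1* minus *ERG11* at -1.93 and -1.95 in the mutant and at -1.80 and -1.84 in the wild type, 0.12 apart. In the order of log FC, *ERG1*, *ERG11*, *ERG25* and *ERG7* each stood apart from the next, *ERG25* and *ERG7* by only 0.07 log2 units. *ERG7* overlapped with *ERG28*, and *ERG28* with *ERG27*. *ERG27* stood apart from *NCP1*, while *NCP1* and *ERG9*, *ERG9* and *ERG26*, and *ERG26* and *ERG24* overlapped. With non-overlap in 73.5% of all pairs of features, standing apart here describes the values and does not rank the genes.

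The 3 genes of lowest log FC, *ERG1*, *ERG11* and *ERG25*, were those whose enzymes consume oxygen. Their mean log FC was -1.22, against -0.65 over the other 7 genes. Within each array, the mean of these 3 genes minus that of the other 7 was 0.40 and 0.10 in the mutant and 0.92 and 0.71 in the wild type. These values do not overlap (difference -0.57, smallest possible exact permutation p of 0.333). As 73.5% of all pairs of single features did not overlap either, the lack of overlap says little about oxygen use. The boundary was narrow, with *ERG25* at -0.94 and *ERG7*, which uses no oxygen, at -0.87. Among the 5 genes after zymosterol the values of both kinds overlapped. *ERG3* and *ERG5*, the oxygen-requiring desaturases of the late steps, had log FC of -1.04 and -1.22, and *ERG6*, *ERG2* and *ERG4*, whose enzymes use none, of -1.25, -1.22 and -0.40. Of the 3 oxygen-requiring lipid enzymes measured outside the pathway 1 was lower, beside 12.1% of all features. This was the sphingolipid hydroxylase gene *SUR2*, with a log FC of -0.28 (limma, adjusted p = 0.0400, standard error 0.07). Its call was lost when either mutant array was left out and with slide position as a covariate. It was also lost with quantile normalisation applied again (limma, adjusted p = 0.0503). The fatty acid desaturase gene *OLE1* had -0.13 (adjusted p = 0.363) without passing.

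The 2 replicates of each strain were not alike in these genes. Replicate 1 was above replicate 2 for 10 of the 10 genes in the mutant and for 9 in the wild type, with *ERG28* as the exception. Of all features, 24.9% had replicate 1 above replicate 2 in both strains, against 9 of these 10 genes. The difference was 0.27 in the median in the mutant and 0.26 in the wild type, beside -0.02 in both strains over all features. *ERG1* and *ERG11* differed most, by 0.60 and 0.57 in the mutant and by 0.48 and 0.44 in the wild type, and they are also the genes of lowest log FC. *ERG26* and *ERG9* were among the steadiest, with 0.05 and 0.14 in the mutant and 0.09 and 0.12 in the wild type. Over the 10 genes, which share the same 4 arrays, the log FC and the mean replicate difference had a Spearman rho of -0.71. All arrays lay on slide 1, with the mutant at positions 4 and 7 and the wild type at positions 6 and 1 for replicates 1 and 2.

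**Figure D3:**
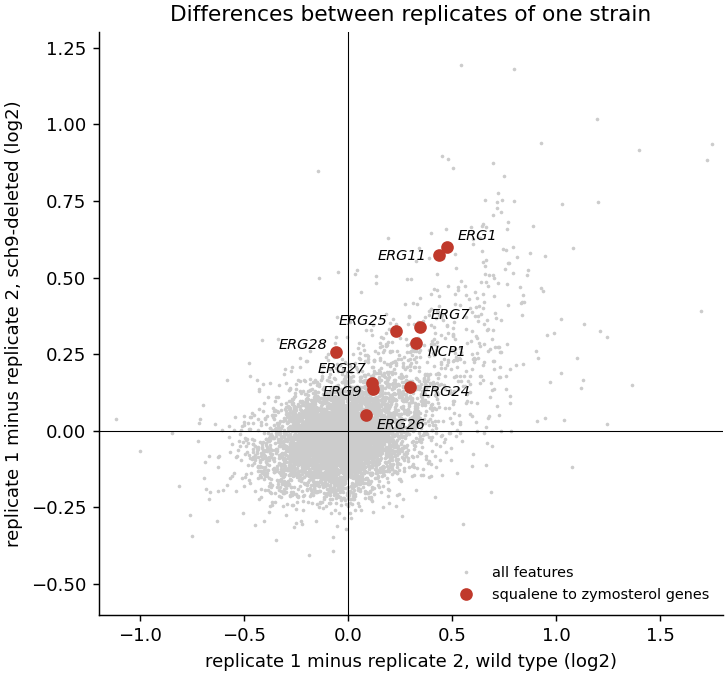
Replicate 1 minus replicate 2 in log2 units, for the sch9 mutant (y axis) and the wild type (x axis), with 1 grey point for each of the 6226 features and labelled red points for the 10 genes. The red points lie above 0 on the y axis, reaching 0.60 in *ERG1*, and 9 of the 10 lie above 0 on the x axis as well.

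The calls depended on which arrays were in the fit. Every log FC of the 10 genes was negative whichever array was left out. That sign was fixed beforehand, as both mutant arrays lay below both wild-type arrays in each gene. Without replicate 2 of the mutant, the array with the lower values, the log FC lay between -1.12 and -0.35 and 0 of the 10 genes passed in limma. In that fit 0.932% of all features were called lower. Without replicate 1 of the mutant 6 genes passed, *ERG9*, *NCP1* and *ERG26* being lost beside *ERG24*, and 4 lay beyond -1, *ERG1* at -1.72, *ERG11* at -1.58, *ERG25* at -1.10 and *ERG7* at -1.04. The background of lower calls was 3.08% there. Leaving out replicate 2 of the wild type let all 10 genes pass, *ERG24* at -0.57 (adjusted p = 0.00511), and placed the same 4 beyond -1, with a background of 20.4%. Without replicate 1 of the wild type *ERG24* had -0.27, over 1.5 times smaller in size than with all arrays.

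**Figure D4:**
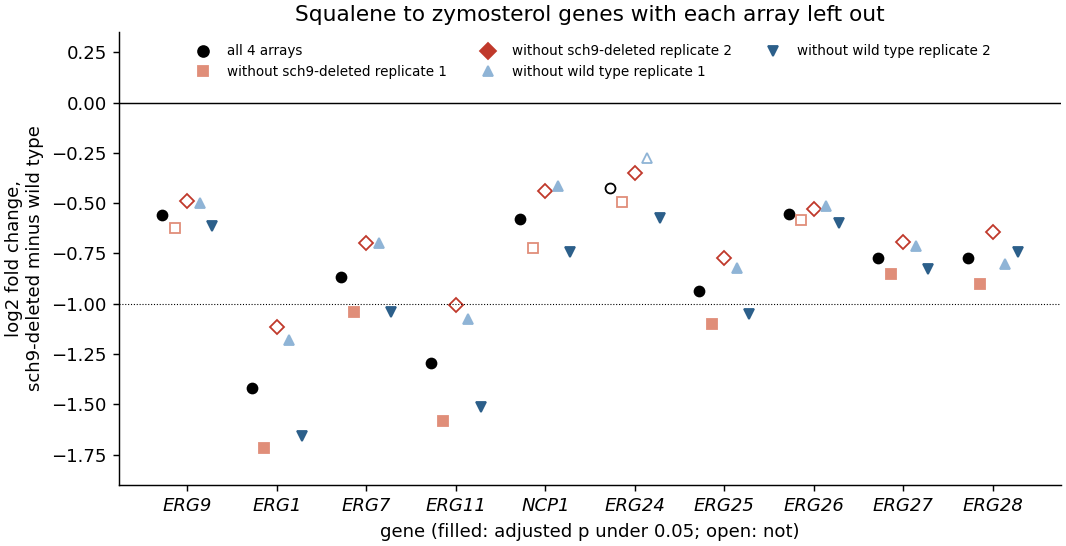
Log2 fold change, sch9-deleted minus wild type (y axis, dotted line at -1), of the 10 genes (x axis) with all 4 arrays and with each array left out in turn, filled where the adjusted p was under 0.05 and open elsewhere. All points are below 0, and all diamonds, without replicate 2 of the mutant, are open and lie between -1.12 and -0.35.

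The steps before and after showed larger falls in the median. Of 9 genes of the mevalonate branch, 7 were lower and 0 higher, with a median log FC of -1.17. Of 5 genes after zymosterol 5 were lower, with a median of -1.22. Among all features 12.1% were lower and 14.6% higher. For the middle part the median was -0.77. At the boundaries, *ERG20*, which makes farnesyl diphosphate, had a log FC of -1.03 (limma, adjusted p = 0.00281, standard error 0.09) directly before *ERG9* at -0.56. *ERG6*, which methylates zymosterol, had -1.25 (adjusted p = 0.0221, standard error 0.25) directly after the C-4 complex, though not passing without replicate 2 of the mutant (-0.97). The gene of lowest log FC in the mevalonate branch was the phosphomevalonate kinase gene *ERG8* at -2.06, and *HMG1*, an HMG-CoA reductase gene, had -1.17 without passing. *HMG1* passed with slide position as a covariate (-1.49, adjusted p = 0.0425) and when either wild-type array was left out, with -0.55 in the absence of replicate 1.

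Farnesyl diphosphate also feeds dolichol, ubiquinone, heme A and protein prenylation. Among 7 genes of these routes, 2 were higher and 0 lower, beside 14.6% higher and 12.1% lower of all features, with a median log FC of 0.07. *SRT1*, a cis-prenyltransferase of dolichol synthesis, measured 7.68 and 7.72 in the mutant and 6.49 and 6.47 in the wild type, a log FC of 1.22 (limma, adjusted p = 7.8e-04, standard error 0.07). Both mutant arrays were above both wild-type arrays. *RAM2*, a prenyltransferase subunit, had -0.43 (adjusted p = 0.0557), and passed with the arrays centred on their medians and without replicate 2 of the wild type.

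Among 3 measured electron carriers and reductases that work with the sterol enzymes, cytochrome b5 stood out. *CYB5*, which donates electrons to Erg25, Erg3 and Erg11, measured 10.71 and 9.81 in the mutant and 12.57 and 12.12 in the wild type. The 4 arrays of the strains did not overlap, and the log FC of -2.09 (limma, adjusted p = 0.0116, standard error 0.32) passed with each array left out. The cytochrome b5 reductase genes did not pass, *MCR1* having a log FC of -0.20 (adjusted p = 0.103). The 8 regulators of sterol and oxygen-responsive genes comprised 3 that were lower, 1 that was higher and 4 without a call. Of all features 12.1% were lower and 14.6% higher, so the 1 higher call is no more than the background. *MOT3*, a repressor of *ERG* and hypoxic genes, measured 9.39 and 8.84 in the mutant and 11.24 and 10.47 in the wild type, a log FC of -1.74 (adjusted p = 0.0156, standard error 0.30), not passing without replicate 2 of the mutant (-1.47). *SUT1*, which promotes sterol uptake, had a log FC of 0.49 and was called higher only with both mutant arrays in the fit. *UPC2*, the sterol-sensing activator of *ERG* genes, measured 9.17 and 9.32 in the mutant and 9.01 and 8.61 in the wild type, so that its transcript was not lower (log FC 0.43, adjusted p = 0.0874), and it passed as higher without replicate 1 of the wild type.

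Genes next to these 10 on the chromosomes were also examined. Of the 10 genes 4 lie on chromosome VIII, 3 on chromosome VII and 1 each on chromosomes V, XII and XIV. Among their 20 adjacent genes in the RefSeq annotation of R64, 13 were measured under a symbol, with 4 lower (30.8%, beside 12.1% of all features), 1 higher (7.69%, beside 14.6%) and 8 without a call. Most of the measured neighbours thus had no call, while the share of lower ones was above that of all features, on few genes. *ERG24* and *PRM1*, a gene of mating cell fusion, are transcribed away from each other, and *PRM1* measured 7.45 and 7.41 in the mutant and 6.20 and 6.22 in the wild type, a log FC of 1.22 (limma, adjusted p = 7.8e-04, standard error 0.07). *SRB2*, a Mediator subunit gene in the same arrangement with *NCP1*, had -0.29 (adjusted p = 0.0667) and passed as lower without replicate 1 of the wild type. *ATF2*, an alcohol and sterol acetyltransferase gene beside *ERG1*, measured 8.06 and 7.81 in the mutant and 9.06 and 9.00 in the wild type. Its log FC of -1.09 (adjusted p = 0.00363, standard error 0.11) passed with each array left out. The other lower neighbours were *SAH1*, the S-adenosylhomocysteine hydrolase gene beside *ERG28*, at -0.60, *HCH1*, an Hsp90 co-chaperone gene beside *ERG24*, at -0.45, and *NOP10*, of ribosomal RNA processing, beside *ERG7*, at -0.39. None of these 3 passed without replicate 2 of the mutant or with slide position as a covariate, and *HCH1* and *NOP10* not without replicate 1 of the mutant either. *STP2*, beside *ERG11*, had 0.14, *ADE6*, beside *ERG25*, 0.08, and *ERP6*, beside *ERG26*, 0.00. The remaining log FC were -0.24 for *CTF8* beside *ERG9*, 0.13 for *DOG2* beside *NCP1*, 0.22 for *APC9* beside *ERG27* and 0.07 for *MEI4* beside *ERG28*. Of these, *CTF8* passed as lower without replicate 1 and *APC9* as higher without replicate 2 of the wild type.

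Genes outside sterol synthesis lay close to the mean profile of the 10 genes. The mean profile, each gene centred on its own mean, was -0.27 and -0.55 in the mutant and 0.53 and 0.29 in the wild type. By Euclidean distance over the 4 arrays, the 10 other named genes nearest to it were *ARO7* (0.04), *RPC19* (0.05), *ANB1* (0.06), *HOM3* (0.07), *GUP2* (0.07), *NAN1* (0.08), *RHR2* (0.09), *RPA12* (0.10), *ERV14* (0.11) and *RPL30* (0.11). They include genes of RNA polymerases I and III (*RPC19*, *RPA12*), of the ribosome and its assembly (*RPL30*, *NAN1*), of amino acid synthesis (*ARO7*, *HOM3*) and the hypoxic isoform of eIF5A (*ANB1*, which may share probe signal with its near copy *HYP2*). Their log FC ran from -0.86 in *GUP2* to -0.75 in *RHR2*. Values in this range follow from how these genes were picked and are no separate result. Of the sterol genes themselves only *ERG7* was as near to the mean profile, at 0.10. *ERG25* followed at 0.12 and *ERG1* was the farthest, at 0.66, so the mean describes few of the 10 genes closely. With 4 arrays, of which the contrast of the strains fixes most of a profile, such nearness is a description of few values.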

How the data were processed

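Cy3-labelled RNA of 2 sch9-deleted and 2 wild-type samples was hybridised by the authors to one-colour Agilent yeast arrays, scanned, read with GenePix and quantile-normalised using limma (R 2.14.2). The deposited values are log2 intensities, a scale read from the values, with array medians of 8.52 to 8.53. How background was corrected is not stated in the sources at hand, and the values were used as deposited.

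Of 6227 probes 4061 had 1 symbol and 2166 none. Probes of 1 gene were averaged, leaving 6226 features, and 4056 of 4060 symbols matched RefSeq R64, used for names and neighbours only. The mutant minus the wild type was tested in R 4.3.3 using limma 3.58.1 (lmFit, eBayes, 3.29 prior degrees of freedom) and called at an adjusted p under 0.05. The labels call the replicates biological and say no more of their origin, so p-values measure the spread between these arrays. The number of arrays limits precision. The fit was tested on simulated data.

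The genes and lists were chosen with earlier results of these data known. Named were the 10 genes, *SCH9*, for each list the passing gene of largest log FC in each direction and the largest that did not pass, adjacent genes and the 10 nearest profiles. *ERG20*, *ERG6*, *ERG2*, *ERG3*, *ERG5*, *ERG4* and *STE3* were added after their values were seen. *DAP1* and promoter motifs were not analysed here. Alternatives were 3 further scalings, a filter on dim features, an intensity trend, robust fitting, the brightest probe, unadjusted p, treat, each array left out, the replicate number as a block and slide position as a covariate.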

Additional observations from a re-analysis of the deposited data

How the results depend on the processing

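The 9 lower genes, with 2 beyond -1, stayed at these counts with quantile normalisation applied again, median centring and 75th percentile scaling. The counts were also the same with the dimmest 0.25 of the features left out, an intensity trend, robust hyperparameters and the brightest probe. Each of the 10 genes had 1 probe, so the brightest-probe run could not change its values. No log FC of the 10 genes reversed under any alternative run. The log FC of these genes cannot change with the dim filter, the trend, robust fitting, the brightest probe, unadjusted p, treat or the replicate block. With an array left out the sign was fixed beforehand. The deposited values were already quantile-normalised, with array medians of 8.52 to 8.53. The scalings could therefore shift a log FC only slightly, and the kept signs say little. The position covariate could have reversed a sign and did not. With treat against a log2 fold change of 0.5, limma called 0 of the 10 lower and 0 with the fold threshold (6 at an unadjusted p), and over all features 34 lower, 136 higher and 31 lower with the fold threshold. With unadjusted p, 1307 features were lower. With slide position as a covariate 445 were lower and 586 higher. In that fit *NCP1* (-0.63, adjusted p = 0.0676), *ERG4*, *SUR2*, *SAH1*, *HCH1*, *NOP10* and *MF(ALPHA)1* did not pass, while *HMG1* did. With the replicate number as a block, all 10 genes passed, *ERG24* with an adjusted p of 0.00418, and 1311 features were lower, against 753 without it; *HMG1* (adjusted p = 0.00127), *RAM2* (0.00364) and *SRB2* (0.0232) then passed as lower and *UPC2* (0.0234) as higher. Replicate differences correlated between the strains at 0.53 over all features, but 2 pairs with no stated link share only a number. Leaving out 1 array gave 0 to 10 lower genes, 0 to 4 of them with the fold threshold, and a median of -0.88 to -0.67. Over all features it gave 58 to 1268 lower, 179 to 1313 higher and 37 to 206 lower with the fold threshold. Fits with an array left out, with position or with the block have 1 residual degree of freedom, and those with an array left out assume that the lone array varies like the other strain. The causes of these shifts were not tested. Background correction could not be varied on normalised values.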
